A study of Mus musculus with 4 samples.

Results

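The 624 PPAR-alpha-only sites far from gene boundaries are called peaks of the PPAR-alpha list, each placed at its summit (the single base with most signal), that had no p53 summit within 1 kb in either p53 list and lay over 5 kb from both ends of every protein-coding gene. They were 15.4% of the 4051 PPAR-alpha summits on chromosomes 1 to 19 (95% exact Clopper-Pearson interval 14.3 to 16.6%), of 4070 in the whole list. Of the 1558 summits without p53, 714 lay that far from genes. Of these, 79 were left out because they stood in a run of 3 or more PPAR-alpha summits within 10 kb and 13 because a tRNA gene lay within 1 kb, 2 of them for both reasons. The rule used the positions in all 3 lists, so the lack of a p53 summit and the distance to genes are not results.

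Chromatin immunoprecipitation with sequencing was done on thymus of mice aged 4 weeks that carry the germline p53 AD/AD genotype, whose p53 forms dimers. All libraries share that genotype, and no wild-type thymus is analysed here. The tissue was taken whole, so the cells that hold a site cannot be told apart. There were 2 p53 libraries and 1 input read at 50 nt and 1 PPAR-alpha library read at 75 nt, so antibody and read length cannot be told apart. The labels do not say whether the p53 libraries came from separate mice. The PPAR-alpha library has no replicate, so no test between samples was possible. The intervals below cover counting error over sites or genes only.

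PPAR-alpha is a nuclear receptor that pairs with RXR on direct repeats of the hexamer AGGTCA and is best known for switching on fatty acid oxidation in liver, heart and muscle. Most cells of the thymus are developing T cells. Their identity genes are controlled by enhancers, stretches of DNA that can lie far from the gene they act on and that bind factors such as RUNX, ETS, E proteins and TCF1. A site far from genes can thus act on a gene other than its nearest, and the genes named here describe position only.

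Although chosen to be far from gene ends, 16 of the 624 sites fell inside a RefSeq promoter window (GRCm38.p6, 250 bases before to 50 after a transcript start). The start was that of a noncoding RNA for 10 and an internal start of a protein-coding gene for 6. These windows hold the sequence that could be read here, and 4 are shown because they are the highest-scoring sites with sequence. Each runs 5′ to 3′ along the transcript, 50 bases to either side of the summit. Capitals mark matches on either strand to AGGTCA, to TGTGGT (the RUNX core), to the E box CANNTG or to CCAAT.
Sp2: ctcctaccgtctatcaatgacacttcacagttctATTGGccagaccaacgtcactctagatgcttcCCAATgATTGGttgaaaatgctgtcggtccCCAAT
Gm41331: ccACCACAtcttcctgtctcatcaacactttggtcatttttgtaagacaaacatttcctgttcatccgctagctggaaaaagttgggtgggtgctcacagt
Gm38734: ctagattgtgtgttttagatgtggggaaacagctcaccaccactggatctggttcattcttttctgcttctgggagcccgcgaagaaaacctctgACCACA
Psap: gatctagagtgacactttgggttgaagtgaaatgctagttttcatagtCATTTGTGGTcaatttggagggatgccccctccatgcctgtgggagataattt
The Sp2 stretch is chr11:96977762-96977862 on the minus strand, 124 bases before an internal start of Sp2, which encodes a zinc finger transcription factor. It scored 371 and held 4 matches to CCAAT, a motif added after this sequence was read. Gm41331 (chr15:60141733-60141833, plus strand, score 16.3) and Gm38734 (chr5:143132983-143133083, plus strand, score 11.5) are long noncoding RNA genes. Both held TGTGGT near one end, and the Sp2 stretch held none. The Psap stretch (chr10:60284263-60284363, plus strand, score 8.57) lies before an internal start of the gene for prosaposin, a lysosomal protein, and held TGTGGT overlapping an E box.

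Over the whole windows of 300 bases, TGTGGT stood in 6 of the 16 (37.5%) and in 16.7% of 31396 autosomal promoter windows of that length. AGGTCA stood in 2 of 16 (12.5%) against 16.3% of all, CANNTG in 13 (81.3%) against 72.2%, and CCAAT in 3 (18.8%) against 37.3%. GGAA, the core of ETS sites, stood in 16 of 16 against 95.9%. The direct repeat of AGGTCA with 1 base between its copies was in 0 of 16 and 0.0382% of all windows, and the p53 decamer motif in 0 of 16 and 8.35%. No difference from all windows was tested. These windows are 16 of the 624 sites, and the sequence of the rest was not analysed here.

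How strong were the sites? The deposited score (read as −log10 of a p- or q-value) had a median of 4.13, with quartiles of 3.06 and 6.55, and ran from 1.68 to 371. A score of 5 or more was reached by 249 sites (39.9%), 10 or more by 58 (9.29%) and 50 or more by 2. The scores are coarse, since the 624 sites took 33 distinct values. Distal PPAR-alpha summits with p53 in both lists within 1 kb (269) had a median of 7.88, and those with p53 in 1 list (439) had 5.91. PPAR-alpha-only summits within 5 kb of a gene boundary (758) had the same median as the distal sites, 4.13.

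The share of distal PPAR-alpha summits that lacked p53 was lower at each higher range of score. It was 69.2% under 3 (117 of 169), 55.01% from 3 to 5 (258 of 469), 43.02% from 5 to 10 (191 of 444) and 25.6% from 10 to 50 (56 of 219). At 50 or more it was 2 of 31. These values come from the lists that the rule used, and p53 at sites too weak to be called in its lists was not tested.

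**Figure D1:**
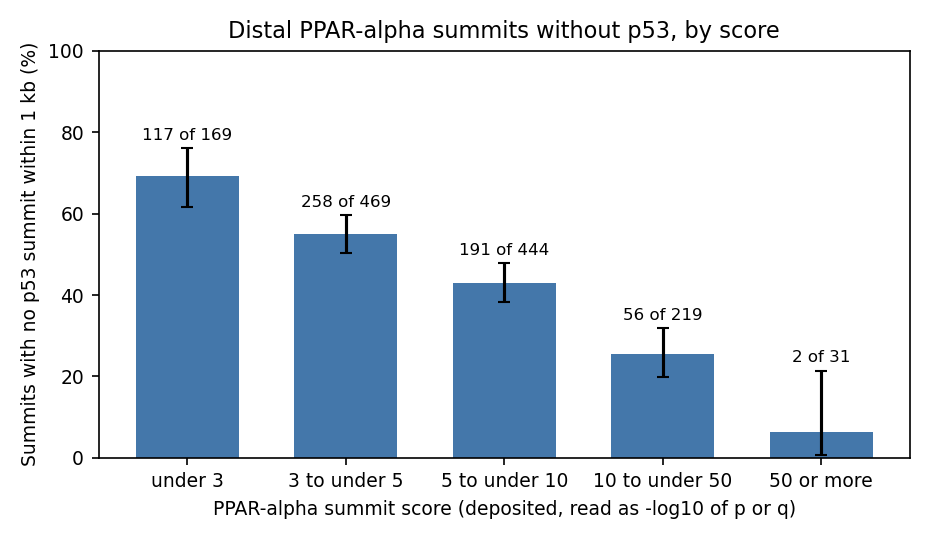
Share of the 1332 distal PPAR-alpha summits outside runs that had no p53 summit within 1 kb, by deposited score; bars give the percent, whiskers the exact 95% interval, and labels the counts. The share was 69.2% under a score of 3 and 25.6% from 10 to 50.

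Both sites with a score of 50 or more lay inside genes of chromosome 11. At Sp2 (position 96977812, score 371, rank 16 of all autosomal PPAR-alpha summits) the nearest p53 summit was in replicate 2, 1027 bp away with a score of 4.33, just past the limit of the rule, and replicate 1 had none within 20 kb. The second lay in Sfi1, a centrosomal gene (3142347, score 280, rank 19). There the p53 lists had summits 3.72 kb away in replicate 1 (score 131) and 4.91 kb away in replicate 2 (116). Neither the input signal nor repeated sequence was examined at these sites.

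The 20 highest sites under a score of 50 ran from 32.0 down to 15.5. Of these, 7 lay inside a gene, and 3 had a p53 summit within 10 kb. The highest was 14.2 kb from Trim29 on chromosome 9 (43350301, 32.0), and the next was 151 kb from Opa1, the gene for a fusion GTPase of the mitochondrial inner membrane (chromosome 16, 29814046, 28.1). Baz2a, a subunit gene of a nucleolar chromatin remodeller, held a site of 25.2 with a p53 replicate 2 summit (2.37) 2.11 kb away. Sites near Lrrc28 (24.3), in Fbxw8 (22.4), a ubiquitin ligase subunit gene, and 250.9 kb from the glycosylation gene Stt3b (20.6) followed.

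Among the rest of the 20, the corepressor gene Rere held a site of 18.9. Mical3 held a site of 18.0. That score was shared by 5 sites, and the others were nearest to Spag16, the amino acid transporter gene Slc16a10, Nrip1 and the transcription factor gene Mef2a. Nrip1 encodes a corepressor of nuclear receptors, and its site lay 176 kb before the gene (chromosome 16, 76549733), beyond the 50 kb window used for gene lists. Ttll5, Cmklr1 and Nfkbiz, the gene for an inducible regulator of NF-kappaB, had 17.2 each. Ssbp2, 4933412E24Rik and Gm21083 had 16.3 each.

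The last pair of the 20 scored 15.5 each. One lay in Inpp5d (chromosome 1, 87637314), which encodes the lymphocyte phosphatase SHIP1. The other lay 95.8 kb before Lef1 (chromosome 3, 131014514), a transcription factor of early T cells, with a p53 replicate 2 summit of 2.97 at 5.44 kb.

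Where did the sites lie? Inside a protein-coding gene lay 317 of them, or 50.8% (46.8 to 54.8%), where 38.4% of all bases over 5 kb from every boundary are inside a gene. The gene table gives no exons, so introns and exons were not separated. The share was 54.3% (48.1 to 60.3%) for distal summits with p53 in both lists and 60.4% (55.6 to 64.97%) for those with p53 in 1 list. The median distance to the nearest boundary was 25.6 kb (22.9 to 28.4), against 68.2 kb over all such bases. It was much the same for distal summits with p53 in both lists (26.5 kb) and in 1 list (26.7 kb). Within 20 kb lay 250 sites (40.1%, against 23.03% of bases) and beyond 100 kb 83 (13.3%, against 41.6%).

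Strand was known for 257 sites inside a single gene. After removal of the 5 kb that the rule excludes at each end, genes were cut into 4 equal stretches from start to end. These held 81 (31.5%, 25.9 to 37.6%), 66 (25.7%), 51 (19.8%) and 59 (22.96%) of the sites, in that order. Of 247 sites between genes whose nearest gene had a known strand, 162 lay before its start and 85 past its end. That is 65.6% before the start (59.3 to 71.5%), where 53.4% of the bases between genes do so. The share was 52.04% (41.7 to 62.2%) for distal summits with p53 in both lists and 58.99% (50.3 to 67.3%) with p53 in 1 list. The difference between these sets was not tested, and their intervals overlap.

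**Figure D2:**
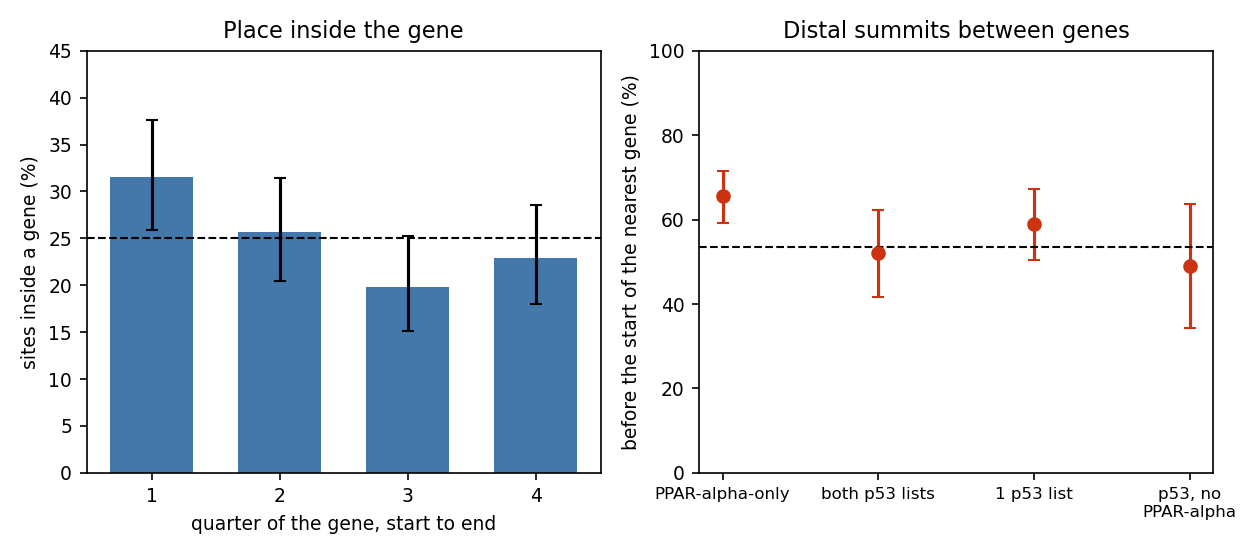
Left, percent of the 257 sites inside a single gene in each of 4 equal stretches of that gene from start to end, with a dashed line at an even 25%. Right, percent of distal summits between genes that lay before the start of the nearest gene, for 4 sets of summits, with a dashed line at the 53.4% of bases; whiskers are exact 95% intervals. The PPAR-alpha-only sites stood at 65.6%.

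Which genes had a site inside or within 50 kb? One was found for 26 of the 102 T cell genes in 4 lists (25.5%, 17.4 to 35.1%), against 851 of 20661 protein-coding genes (4.12%). Genes of 9 other lists had one in 9 of 198 cases (4.55%, 2.099 to 8.45%). The 26 genes shared 31 sites. T cell genes of these lists are longer, with a median of 40.7 kb against 17.5 kb. Counted per megabase of eligible sequence in the same windows, there were 2.33 sites around T cell genes, 0.561 around the other lists and 0.403 around all genes. With sites of a score of 5 or more, and likewise when sites with another PPAR-alpha summit within 10 kb were dropped, the T cell count was 14 (13.7%) and the percent over all genes 1.81 and 3.20. In a window of 20 kb 20 T cell genes had one (19.6%, against 2.25%), and in one of 100 kb 32 (31.4%, against 7.2%). Counting only the gene that holds a site or lies nearest to it gave 26 (25.5%, against 2.54%). At a score of 10 or more 3 T cell genes remained (2.94%, against 0.411%).

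**Figure D3:**
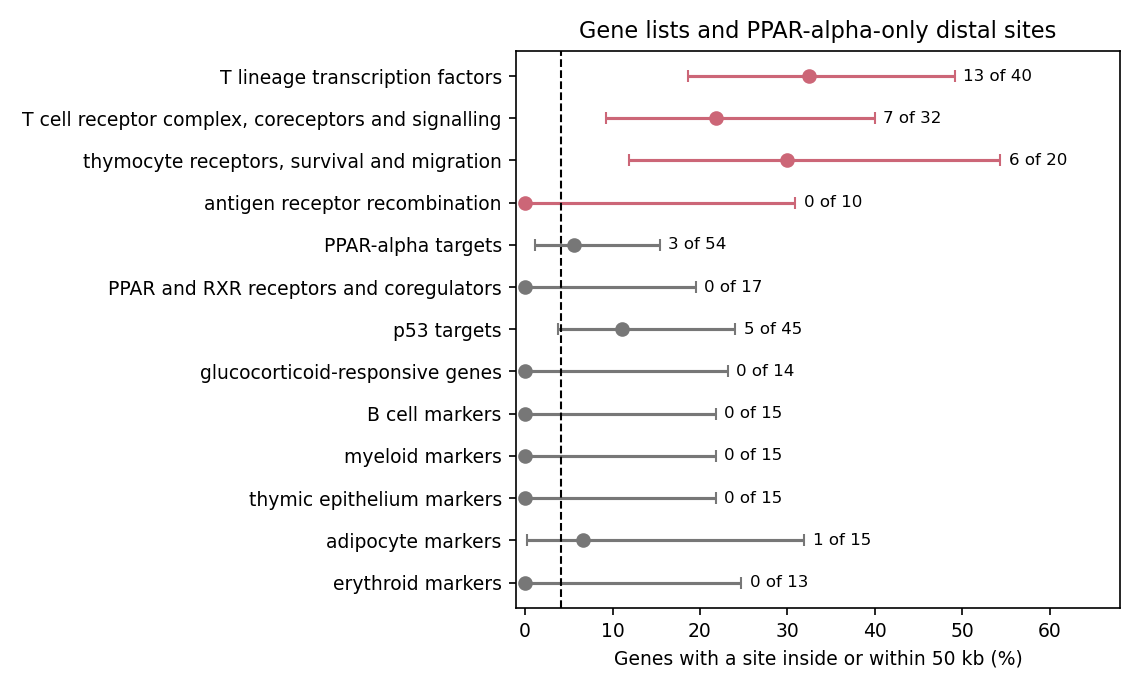
Percent of the genes in each of 13 lists with a PPAR-alpha-only distal site inside or within 50 kb; points are percents, whiskers exact 95% intervals, red the 4 T cell lists, and the dashed line the 4.12% of all protein-coding genes. T lineage transcription factors stood at 13 of 40.

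Transcription factors of the T lineage had a site in 13 of 40 cases (32.5%, 18.6 to 49.1%, against 4.12% of all genes). With scores of 5 or more 7 did (17.5%, against 1.81% of all genes). Satb1, a chromatin organiser of thymocytes (chromosome 17, 51736187 to 51833290), had the highest, 46.1 kb before its start (51879412, score 13.04), and a second inside it (3.58). Tox, a regulator of CD4 lineage development, held a site of 10.7 (chromosome 4, 6902318). The site of Klf2, a regulator of thymocyte exit, lay 39.8 kb before its start with 9.995 (chromosome 8, 72279303) and is nearer to Ap1m1. The nearest p53 summits to the Satb1, Tox and Klf2 sites were 44.3, 87.0 and 196 kb away.

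Tcf7, which encodes TCF1, held sites of 7.20 and 2.11 (chromosome 11, 52251999 and 52255070). Notch1, the receptor that commits cells to the T lineage, and Bcl11b, which keeps them in it, each held 1 of 5.30, and Ets1 had 1 of that score 27.6 kb away. Runx3, Foxp1 and Nfatc3 had a highest score of 4.70, and Lef1 (inside the gene), Bach2 and Myb had 3.58. Satb1 shows how such a site can stand beside stronger ones, since the start of the gene held a PPAR-alpha summit of 86.7 that is no member.

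**Figure D4:**
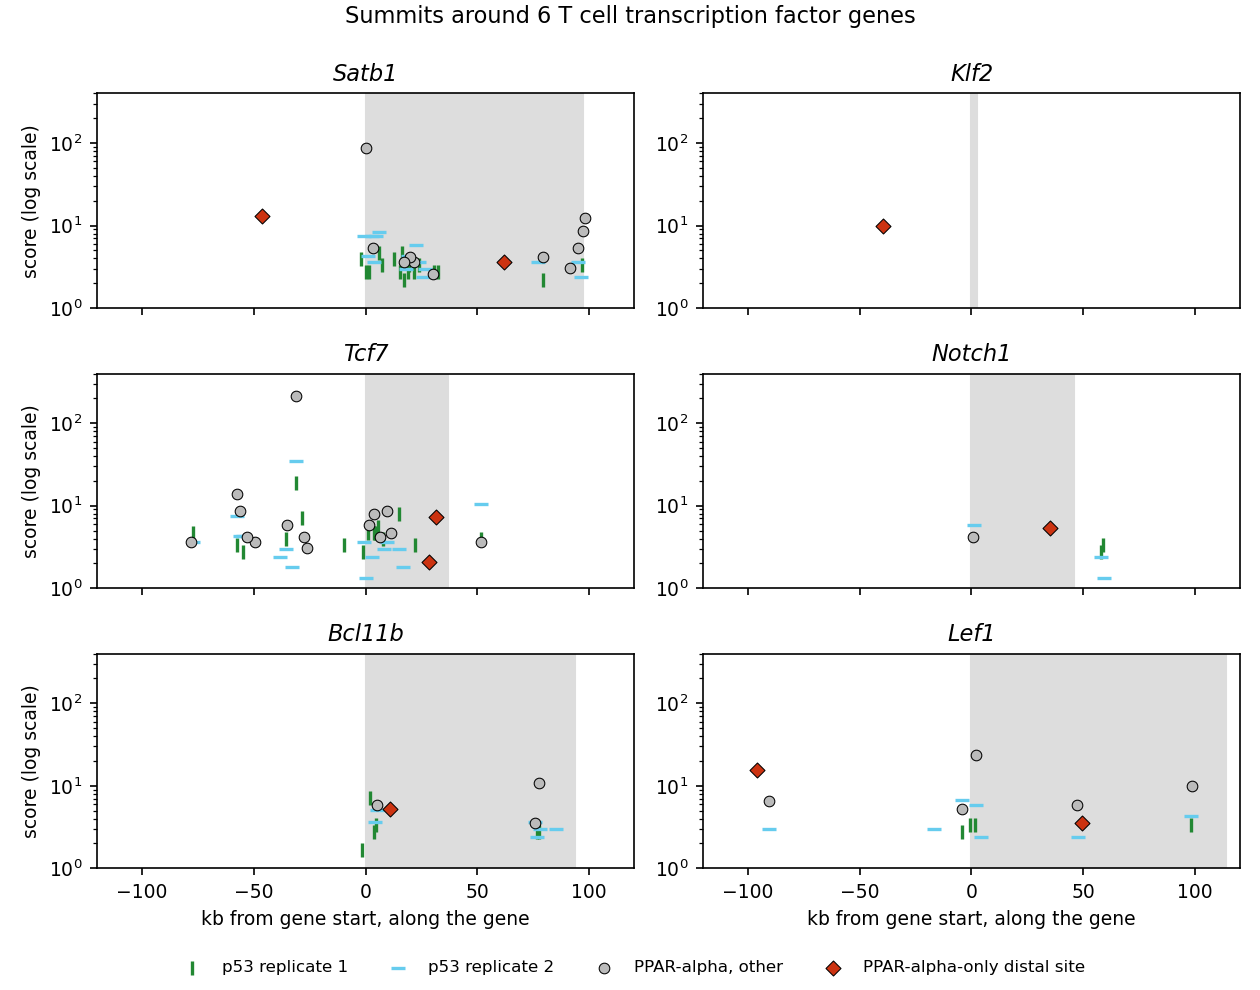
Summits within 120 kb of the start of 6 T cell transcription factor genes, by distance along the gene in kb and deposited score on a log axis; grey bands are the genes, red diamonds PPAR-alpha-only distal sites, grey circles other PPAR-alpha summits, and dashes the p53 replicates. The Satb1 site of 13.04 lay 46.1 kb before the start and the Lef1 site of 15.5 at 95.8 kb, each away from the summits at the gene itself; Lef1 was added for that site after its values were seen.

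Genes of the T cell receptor complex, coreceptors and signalling had a site in 7 of 32 cases (21.9%, 9.28 to 39.97%, against 4.12% of all genes). With pairs of PPAR-alpha summits within 10 kb dropped the count was 2 (6.25%, against 3.20%), and with scores of 10 or more it was 0 (upper bound 10.9%). The costimulatory receptor gene Cd28 had 1 of 6.55 at 8.36 kb (chromosome 1, 60781723). The neighbours Cd5 and Cd6, which encode inhibitory receptors of T cells, shared 2 sites of 6.55 each (chromosome 19, 10751724 and 10760964). Sla, an adaptor that lowers receptor levels, held sites of 5.30 and 4.70. Cd4 had 1 of 3.58 at 11.1 kb, which is nearer to its neighbour Lag3. Prkcq and Themis had 1 of 2.11 each.

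Genes of thymocyte receptors, survival and migration had a site in 6 of 20 cases (30.0%, 11.9 to 54.3%, against 4.12% of all genes). The chemokine receptor gene Cxcr4 had sites of 5.91 and 3.06, and Thy1 1 of 5.30. Cd44 (4.13), Ccr7 (3.06) and the survival gene Bcl2 (2.57) followed. None of the 10 antigen receptor recombination genes, Rag1 and Rag2 included, had a site (0%, upper bound 30.8%, against 4.12% of all genes). A list this short may well have none. Taken over all autosomal PPAR-alpha summits, 6 of the 10 (60%) had one within 50 kb, against 31.8% of all genes. For PPAR-alpha-only summits within 5 kb of a gene boundary the count was 3 (30%, against 11.5%).

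For these sites, the best known PPAR-alpha targets, among them the genes of fatty acid oxidation, stood near the level of all genes, with a wide interval. Of 54 PPAR-alpha targets, 3 had a site within 50 kb (5.56%, 1.16 to 15.4%, against 4.12% of all genes). They were Acadm, the medium-chain acyl-CoA dehydrogenase (7.20, 24.98 kb away), Eci2, an enoyl-CoA isomerase (5.91, 8.76 kb), and the lipid droplet gene Plin2 (2.57, 42.3 kb). None of the 17 genes for PPAR and RXR receptors and coregulators had one (upper bound 19.5%). Taken over all autosomal PPAR-alpha summits, 27 of the 54 targets (50%) had one within 50 kb, against 31.8% of all genes. For PPAR-alpha-only summits within 5 kb of a gene boundary the count was 12 (22.2%, against 11.5%). These differences were not tested.

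Of 45 p53 targets, 5 had a site (11.1%, 3.71 to 24.1%, against 4.12% of all genes). In a window of 20 kb 1 did (2.22%, against 2.25%), and likewise 1 when only the gene holding a site or nearest to it was counted (against 2.54%). The site for Tap1, a peptide transporter gene, lay inside its neighbour Tap2 (chromosome 17, 34210831, 13.8). That for the cell cycle inhibitor gene Cdkn1a lay 42.8 kb away inside Rab44 (29143540, 10.7). Phlda3 had 2.57 and Ddit4 1.68. Among markers of other cells, those of B cells, myeloid cells and thymic epithelium had 0 of 15 each (upper bound 21.8%), erythroid markers 0 of 13 and glucocorticoid-responsive genes 0 of 14. With 4.12% of all genes near a site, lists this short may well have none, so these counts do not check the tissue label. Taken over all autosomal PPAR-alpha summits, 9 of 15 B cell markers (60%) and 7 of 15 myeloid markers (46.7%) had one within 50 kb, against 84 of 102 T cell genes (82.4%) and 31.8% of all genes. Adipocyte markers had 1 of 15, which was Adipoq (3.58).

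Other sets of summits were near T cell genes too. Distal PPAR-alpha summits with p53 in both lists had 20 of the 102 T cell genes within 50 kb (19.6%, 12.4 to 28.6%, against 1.9% of all genes), and those with p53 in 1 list also 20 (against 3.06%). Distal p53 summits of both lists without PPAR-alpha (135) had 10 (9.80%, 4.80 to 17.3%, against 1.1%). PPAR-alpha-only summits within 5 kb of a boundary had 22 (21.6%, 14.04 to 30.8%), but there 11.5% of all genes and 17.7% of the other lists had one too. The sets differ in size, and the differences between them were not tested.

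**Figure D5:**
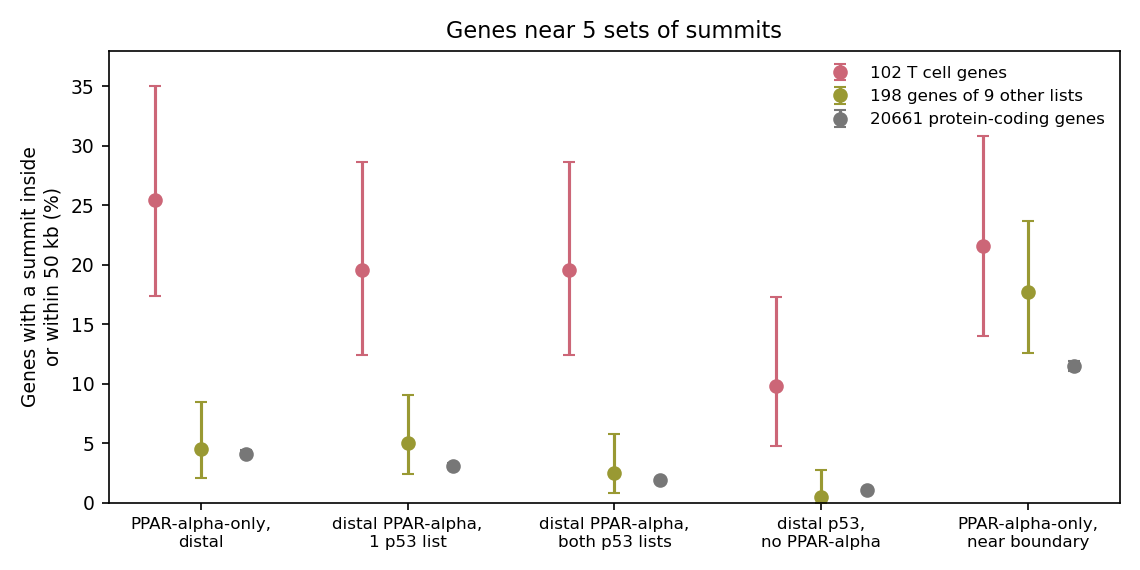
Percent of genes with a summit inside or within 50 kb, for 5 sets of summits and 3 groups of genes; points are percents and whiskers exact 95% intervals. T cell genes (red) stood at 25.5% for the PPAR-alpha-only distal sites, against 4.12% of all genes. They stood at 19.6% for both sets of distal PPAR-alpha summits with p53. There the percent of all genes was 1.9% with p53 in both lists and 3.06% with p53 in 1 list. The sets differ in size, so each percent is to be read beside that of all genes.

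How did the sites relate to each other and to p53? The median distance to the nearest p53 summit was 34.4 kb (27.9 to 44.3). Past the limit of the rule, 60 sites (9.62%) had a p53 summit within 2 kb, 173 (27.7%) within 10 kb and 351 (56.3%) within 50 kb. Within 10 kb lay a summit of p53 replicate 1 for 91 sites and of replicate 2 for 139. Just inside the limit stood sites of 4.13 near Rgcc, 371 at Sp2 and 7.88 near Ly6i, at 1015, 1027 and 1036 bp. Just outside it stood summits of 4.70, 7.20 and 3.06 at 994, 989 and 981 bp. At the limit of 5 kb from a boundary, the nearest site inside was 5005 bp from Lag3 (3.58) and the nearest outside 4992 bp from Gatad2a (3.58). Another PPAR-alpha summit lay within 10 kb of 170 sites (27.2%).

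Genes with 3 or more sites inside or within 50 kb numbered 12 of 20661 (0.0581%). Akap13, which encodes a kinase anchor protein, held 4 (6.55, 6.55, 3.06 and 2.57) within its 299 kb on chromosome 7. Mvb12b had 4, with a highest of 5.30. Mef2a, Jakmip1, Ly6e, Zfp978 with its neighbour Zfp982, Ldlrad4, a gene for an inhibitor of TGF-beta signalling, Mns1, Tg, Prkcb, a protein kinase C gene, and Sema4d had 3 each. Tg holds the T cell gene Sla within it and shares its sites. This count rests on both p53 lists, since it was 22 without p53 replicate 1 and 31 without replicate 2. It was 0 with scores of 5 or more.

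Noncoding genes overlapped 114 sites (18.3%), of which 104 lay in long noncoding RNA genes. The boundary of one was within 1 kb of 49 sites (7.85%, 5.87 to 10.2%), against 10.6% of all autosomal PPAR-alpha summits (9.64 to 11.6%). The immunoglobulin heavy chain locus Igh on chromosome 12 held 6 sites (0.962% of the 624), with a highest of 9.995 at 115808804. The T cell receptor alpha locus held 1, of 2.11 (chromosome 14, 54181439). These counts allow for neither the length of a locus nor the other summits in it, so they show no preference between the loci. Among the chromosomes, the sites were between 10.7% (chromosome 11, 44 of 413) and 20% (chromosome 16, 31 of 155) of the PPAR-alpha summits.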

How the data were processed

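Summit lists of 3 ChIP libraries from thymus were used, 2 for p53 and 1 for PPAR-alpha. The input library is not analysed here. The authors deposited each list with a score per summit, taken from its layout and values to be a −log10 p-value, and whether of p or q is unknown. The submitters' processing notes list MACS2 2.1.2, Bowtie2 2.3.4.2 and Picard 2.9.0, with neither role nor setting. The calling threshold, like the control and the read numbers, is not given in the sources used here, so the depth is unknown. Those notes name GRCh38, a human build, but 42.1% of the PPAR-alpha summits lay within 1 kb of a mouse gene boundary of RefSeq GRCm38.p6, against 3.08% of all bases, so that table was used.

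Positions are counted from 1. A run is any 10 kb with 3 or more PPAR-alpha summits. All bases means every 1000th base between the first and last gene of each chromosome. Strand came from the RefSeq promoter table for 16456 of 20661 genes. Of the list genes, 5 not found on chromosomes 1 to 19 were not counted. The rule for names took the 20 highest sites under a score of 50 and those above it, list genes in order of score (at most 8 per T cell list and 4 per other list), and the 10 genes with most sites. Ties, the last T cell transcription factors and Ddit4 were added after their values were seen. Some items that the rule names are not reported here. The sites and lists were chosen with earlier results of these data known. Shares have exact Clopper-Pearson intervals (scipy 1.17.1), medians order-statistic intervals, and no tests were run. Of the selection, the p53 distance and the runs were tested on simulated positions. The boundary, tRNA and gene window steps were not. A motif search around all sites needs a genome and was not run, and RefSeq promoter windows were searched in its place. The placing of sites along genes and before or after them was added after the data were seen. The alternatives changed the distances, the score, the runs, the p53 lists and the gene window.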

Additional observations from a re-analysis of the deposited data

How the results depend on the processing

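No paired analysis was possible because no result comes from a test and the PPAR-alpha group has 1 library. The percent of T cell genes with a site stayed between 4.28 and 10.1 times that of all genes under the main setting and 15 alternatives. The number of sites fell from 624 to 249 at scores of 5 or more and to 58 at 10 or more, where the median score was 7.20 and 12.3 by construction. It was 784 and 903 without p53 replicate 1 or 2. The percent inside a gene was 55.7 with the boundaries of all RefSeq genes and 46.6 at scores of 10 or more, and the cause was not tested. The median distance to a boundary was 32.8 kb with a limit of 10 kb.

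The median distance to the nearest p53 summit was 25.5 kb with a limit of 500 bp, 54.7 kb with 5 kb, 26.6 kb with runs kept, 54.8 kb with pairs dropped and 62.5 kb at scores of 10 or more. Without 1 p53 replicate it ranged from 50.6 to 66.4 kb. Both the p53 summits and the set of sites differ there, and their parts in the change were not tested. The number of genes with 3 or more sites was 6 with all RefSeq boundaries, 29 with runs kept, 1 with pairs dropped, 0 at scores of 5 or more, 0 at scores of 10 or more, and 22 to 31 without 1 p53 replicate. Reading runs as chains of summits with gaps up to 10 kb, chosen after seeing the data, gave 6. The percent of T cell genes with a site was 13.7 with pairs dropped, 13.7 at scores of 5 or more and 2.94 at 10 or more, and 30.4 to 34.3 without 1 p53 replicate. What depth limits here is unknown, as the read numbers are.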

Other observations

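Some sites outside the naming rule were chosen after their values were seen. A site of 11.5 lay 263 kb past the end of Gata3, the nearest protein-coding gene (chromosome 2, 9594059). The region far downstream of Gata3 is known to hold a T cell enhancer, and whether this position belongs to it was not tested. Summits of p53 lay 1.48 kb away in replicate 1 (score 8.81) and 1.24 kb away in replicate 2 (2.37). Prkch, a protein kinase C gene, is on none of the lists and held a pair of sites of 11.5 each (chromosome 12, 73593522 and 73699664). Upstream of Lef1 a further site of 7.20 lay 134 kb before the gene.

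Other sites stood alone in stretches with few summits. How well reads can be placed in these stretches was not tested. The site of 16.3 nearest to Gm21083 (chromosome 5, 15599172) was 5353 kb from the next PPAR-alpha summit and 5103 kb from the nearest p53 summit. A site of 12.3 in Aqr, a splicing helicase gene, was 1879 kb from the next PPAR-alpha summit. The site farthest from a gene boundary lay 913 kb from Gm15501 on chromosome 7 (94096798, 5.91).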
